A study of Homo sapiens with 12 samples.

Results

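The STAT family encodes transcription factors that carry signals from cytokine receptors to the nucleus. Family members were taken as the rows of the deposited count table with the symbols STAT2, STAT3, STAT4, STAT5A, STAT5B and STAT6, which gave 6 of 26364 genes, and all 6 passed the filter on low counts that left 14184 genes for testing. RNA was sequenced from MDA-MB-231, an established human triple-negative breast cancer line, in 12 libraries from replicate wells. There were 4 groups of 3 wells: untreated wells, wells given dexamethasone at 1 µM (DEX, a potent synthetic glucocorticoid), wells given SH4-54 at 8 µM, and wells given both at those doses. SH4-54 is a compound made to bind and inhibit the STAT3 and STAT5 proteins. Exposure lasted 24 h in every treated group. All wells hold 1 cell line, so the results describe that line under these doses and this time only. The labels do not state whether the untreated wells received a vehicle, so an effect of solvent cannot be told apart from treatment.

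In the canonical pathway, a cytokine joins its receptor chains, receptor-bound JAK kinases phosphorylate the receptor, and a STAT protein docks there and is phosphorylated on a tyrosine near its C-terminus. Phosphorylated STATs pair through their SH2 domains, enter the nucleus and bind DNA. STAT3 serves the interleukin-6 family, STAT5A and STAT5B serve prolactin, growth hormone and several interleukins, STAT6 serves interleukin-4 and interleukin-13, STAT4 serves interleukin-12 and is best known from lymphocytes, and STAT2 joins IRF9 in the complex that answers type I interferon. Constitutive STAT3 phosphorylation is well known in triple-negative breast cancer lines. RNA counts measure transcript levels and carry no information on phosphorylation.

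The coding sequence around that tyrosine is shown for 5 members because it is the site where the pathway acts on them, and because it shows how alike STAT5A and STAT5B are. Each run gives 45 coding bases of the principal GENCODE v29 transcript (GRCh38), 5′ to 3′, with the tyrosine codon in capitals:
STAT2: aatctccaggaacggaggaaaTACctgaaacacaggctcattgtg
STAT3: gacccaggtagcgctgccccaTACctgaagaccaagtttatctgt
STAT5A: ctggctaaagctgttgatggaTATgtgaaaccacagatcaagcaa
STAT5B: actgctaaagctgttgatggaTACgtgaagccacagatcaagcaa
STAT6: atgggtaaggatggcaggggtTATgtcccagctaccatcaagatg
The capitals encode tyrosine 690 in STAT2 (exon 22, chr12:56346178-56346180, minus strand) and 705 in STAT3 (exon 22, chr17:42317211-42317213, minus strand). They encode tyrosine 694 in STAT5A (exon 18, chr17:42309064-42309066, plus strand), 699 in STAT5B (exon 17, chr17:42202789-42202791, minus strand) and 641 in STAT6 (exon 17, chr12:57099047-57099049, minus strand). STAT5B, STAT5A and STAT3 are consecutive protein-coding genes on chromosome 17.

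STAT5A and STAT5B were 89.0% identical over their aligned coding bases, and their longest identical coding run was 429 bases. Its first 120 bases, from coding base 564 of both genes, show a stretch from which a 50-base read cannot be given to either gene:
STAT5A and STAT5B: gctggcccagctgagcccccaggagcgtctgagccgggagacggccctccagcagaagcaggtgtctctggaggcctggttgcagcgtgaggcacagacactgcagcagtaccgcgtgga
Of all 50-base windows, 507 of 4252 in the STAT5A transcript (11.92%) and 507 of 5054 in the STAT5B transcript (10.03%) occurred in the other gene. The labels do not say how the authors' counting treated such reads, so the split between STAT5A and STAT5B counts is uncertain. STAT6 exons overlapped those of NAB2 by 69 bases and those of LRP1 by 59 bases on the opposite strand, and STAT4 exons overlapped those of AC067945.3 by 109 bases, all in GENCODE v29. Nor do they give the strand setting of the counting.

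Libraries held 25577213 to 35758236 counted reads. The 8 mesenchymal markers summed to 4390 to 4980 CPM (counted reads scaled to library size by TMM, a normalization that trims extreme genes), while the estrogen receptor gene ESR1 stayed at or below 0.233 CPM and the progesterone receptor gene PGR at or below 0.451 CPM. The other 4 genes of the luminal and receptor list were expressed, with KRT8 at 342.5 to 519.8 CPM, KRT18 at 289.6 to 365.3, ERBB2 at 73.8 to 90.4 and EPCAM at 17.3 to 23.2, and the sum of the 6 was 730 to 983 CPM. In a principal component analysis of log2 CPM, the 3 wells with both compounds lay farthest apart on the second component (-22.3, -31.4 and -13 for replicates 1, 2 and 3). NR3C1, which encodes the glucocorticoid receptor, averaged 494 CPM without drug and 275 CPM with DEX, a log2 fold change of -0.84 ± 0.0284 (SE; edgeR adjusted p = 8.98e-12).

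STAT3 was the most abundant member per length and STAT4 the least. Per kilobase of exon, STAT3 averaged 39.6 ± 0.395 CPM (SD, n = 3) without drug. STAT2 followed at 16.3 ± 1.12 CPM per kilobase, STAT6 at 13.4 ± 0.277, STAT5B at 10.9 ± 0.268, STAT5A at 2.22 ± 0.0536 and STAT4 at 0.318 ± 0.0643. The mean levels kept this order in all 4 groups, and no neighbours in it overlapped between wells without drug. With SH4-54, neighbours also stayed apart, for example STAT6 at 13.1 to 14.1 and STAT2 at 16.1 to 17.3 CPM per kilobase. Exon lengths come from GENCODE v29, which is not the annotation the reads were counted on. In bulk RNA, a higher level in every cell and a change in the share of expressing cells cannot be told apart.

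DEX alone changed 4 of the 6 members: STAT2, STAT3 and STAT4 rose and STAT5B fell (adjusted p below 0.05 in edgeR's quasi-likelihood test over all genes). DEX moved much of the transcriptome, with 21.9% of tested genes higher and 23.2% lower at that threshold, so 3 members up and 1 down has to be read against these shares. The median log2 fold change of the 6 members was 0.13, beside -0.01 over all tested genes. STAT5A and STAT6 did not pass.

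STAT2, the interferon-pathway member, stood at 59.2, 55.3 and 51.5 CPM in the wells without drug and at 80.6, 83.7 and 84.5 CPM with DEX. It measured 54.5, 58.6 and 58.6 CPM with SH4-54 and 65.2, 57.3 and 70.9 CPM with both compounds. The DEX wells lay above every other well, and the wells with both compounds reached from the level of the SH4-54 wells to part of the way towards the DEX wells. The rise with DEX was 1.5-fold, a log2 fold change of 0.58 ± 0.0662 (SE; edgeR adjusted p = 4.2e-06).

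STAT4, the interleukin-12 responder, had the largest relative change of the 6 and the lowest level. Its CPM values were 0.970, 0.994 and 1.37 without drug and 3.56, 4.04 and 3.05 with DEX. Wells with SH4-54 gave 0.619, 0.863 and 1.31 CPM, and wells with both compounds 2.18, 3.01 and 3.20 CPM. All 6 wells that received DEX were above all 6 that did not. DEX alone raised STAT4 3.21-fold (log2 fold change 1.68 ± 0.224 SE; edgeR adjusted p = 2.14e-05). These levels rest on 18 to 118 reads per library. Among 8 leukocyte markers, the pan-leukocyte gene PTPRC stayed at or below 0.733 CPM and the T-cell gene CD3D at or below 0.138 CPM in every library. The summed leukocyte markers, nearly all of it CD68, ran from 42.0 to 44.3 CPM without drug, from 36.2 to 39.2 CPM with DEX, from 47.1 to 47.7 CPM with SH4-54 and from 48.2 to 53.2 CPM with both compounds. The leukocyte sum was thus highest with both compounds, where STAT4 was raised, and lowest with DEX alone, where STAT4 was raised as well. The 4 endothelial markers summed to 3.27 to 4.85 CPM without drug and 9.42 to 10.8 CPM with DEX. Their sum was 3.55 to 4.92 CPM with SH4-54 and 6.3 to 9 CPM with both compounds. It was thus higher in the wells given DEX, as STAT4 was. Of the 2 endothelial markers that could be tested, 1 was higher and 1 lower with DEX. The part of either sum in the STAT4 result was not tested.

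STAT3, the main named target of SH4-54, was at 197.5, 200.9 and 201 CPM without drug and at 229, 230.9 and 225.3 CPM with DEX. It was at 197.8, 190.8 and 200.2 CPM with SH4-54 and at 203, 194.2 and 220.4 CPM with both. The DEX wells did not overlap any other group, while the wells with both compounds spread over the range of the untreated and SH4-54 wells and above it. The rise with DEX was 1.14-fold (log2 fold change 0.19 ± 0.0396 SE; edgeR adjusted p = 0.00101).

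STAT5B was the member that fell with DEX. It measured 54.3, 56.0 and 57.0 CPM without drug, 50.9, 49.1 and 49.1 CPM with DEX, 52.2, 53.3 and 54.3 CPM with SH4-54, and 46.6, 51.5 and 51.0 CPM with both. Every DEX-treated well lay below every well without DEX. The log2 fold change with DEX was -0.17 ± 0.0431 (SE; edgeR adjusted p = 0.00548).

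STAT5A, the close relative of STAT5B, gave 10.86, 10.38 and 10.47 CPM without drug and 9.904, 9.864 and 10.17 CPM with DEX. It gave 10.72, 9.31 and 12.04 CPM with SH4-54 and 12.16, 12.14 and 12.47 CPM with both compounds. Wells with both compounds were the highest, and SH4-54 replicate 3 came close to them. STAT6, the interleukin-4 and interleukin-13 responder, ranged only from 57.6 to 65.5 CPM over all 12 libraries. Its log2 fold change with DEX was 0.06 ± 0.0395 (SE; edgeR adjusted p = 0.243) and that of STAT5A -0.08 ± 0.0797 (SE; edgeR adjusted p = 0.428).

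**Figure D1:**
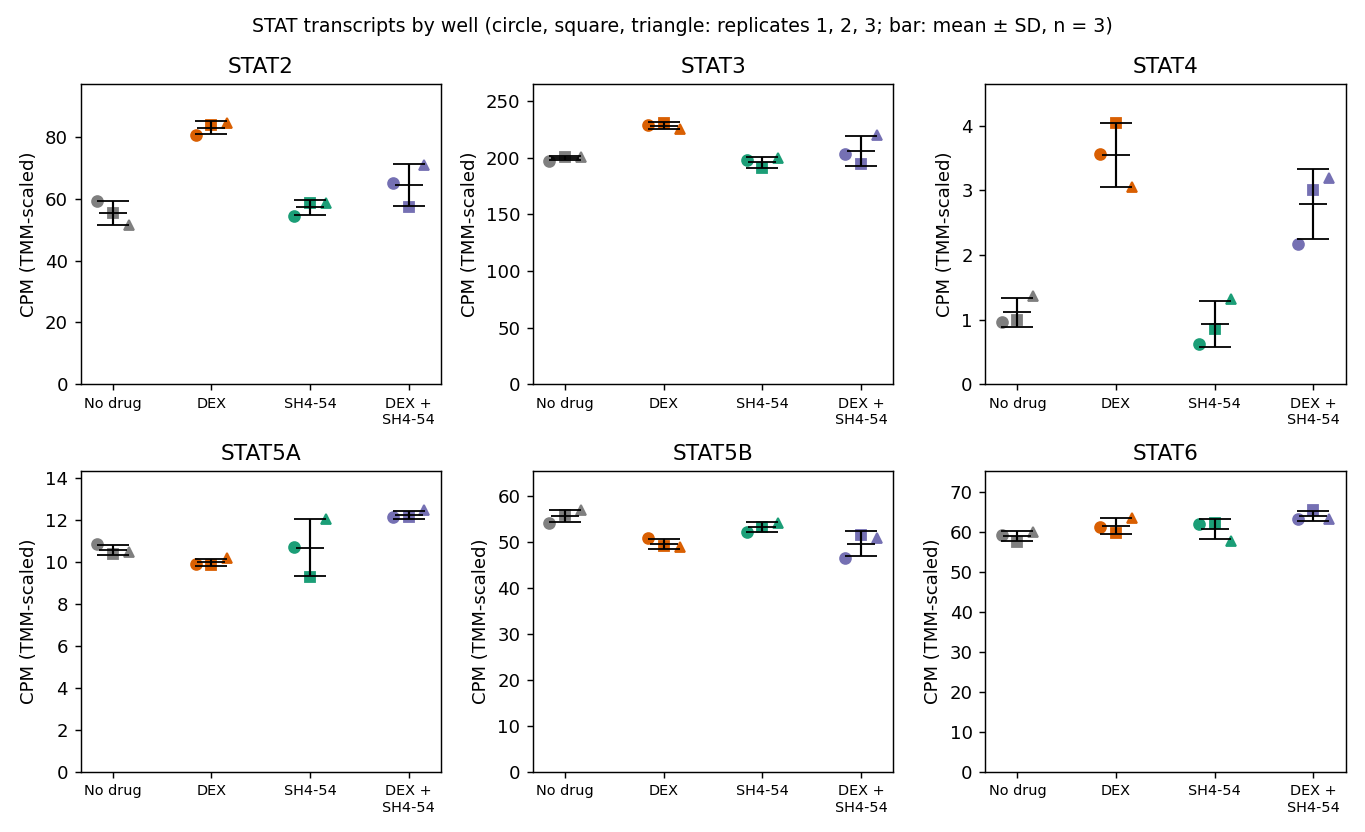
TMM-scaled CPM of the 6 STAT transcripts (y axis, from 0) in each well of the 4 treatment groups (x axis), with group mean and SD (n = 3). The DEX wells lie above all other wells for STAT2 and STAT3, while for STAT4 they overlap the wells with both compounds; STAT2 in wells with both compounds runs from 57.3 to 70.9 CPM.

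With SH4-54 alone, 0 of the 6 STAT transcripts passed edgeR's test, and none passed at an unadjusted p below 0.05 or in DESeq2. Over all genes SH4-54 alone gave few calls, with 0.268% higher and 0.331% lower. The intervals set how large a change could have been missed. For STAT3 the log2 fold change was -0.03, with a 95% interval from -0.12 to 0.07, and for STAT5B -0.07, from -0.16 to 0.03. For STAT5A it was 0.02 (-0.17 to 0.20), for STAT2 0.05 (-0.11 to 0.20) and for STAT6 0.04 (-0.05 to 0.13). STAT4, with few reads, had the widest interval, from -0.90 to 0.38.

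Adding SH4-54 to DEX lowered STAT2 and STAT3 and raised STAT5A relative to DEX alone. Over all genes 13.0% were higher and 13.5% lower in this comparison, beside 1 and 2 of the 6 members. STAT2 had a log2 fold change of -0.36 ± 0.0658 (SE; edgeR adjusted p = 0.00134) and STAT3 one of -0.15 ± 0.0396 (SE; edgeR adjusted p = 0.0127). STAT5A was 1.23-fold higher, a log2 fold change of 0.30 ± 0.0788 (SE; edgeR adjusted p = 0.0128). The STAT3 call was lost without the second well of both compounds (edgeR adjusted p = 0.0597). This comparison shares the DEX wells with DEX against no drug, so the changes of a member in these comparisons are not independent measurements.

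Within the wells of both compounds, STAT2 and STAT3 were lowest in replicate 2 and highest in replicate 3, the same order as their positions on the second principal component. The part of that spread in the STAT2 and STAT3 results was not tested.

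When DEX was compared with no DEX in the presence of SH4-54, only STAT4 passed. Its rise was 3.05-fold (log2 fold change 1.61 ± 0.241 SE; edgeR adjusted p = 8.99e-05). Over all genes 20.1% were higher and 20.3% lower, beside 1 and 0 of the 6 members. STAT2 had a log2 fold change of 0.17 ± 0.0667 (SE; edgeR adjusted p = 0.0504), STAT5A 0.20 ± 0.0782 (SE; edgeR adjusted p = 0.0555), STAT5B -0.10 ± 0.0432 (SE; edgeR adjusted p = 0.0823) and STAT3 0.07 ± 0.0397 (SE; edgeR adjusted p = 0.18). STAT2 passed in 7 of 19 alternative fits, with edgeR adjusted p = 0.0034 without replicate 2 of both compounds and 0.0472 without replicate 1 or 3 of no drug. STAT5A passed without replicate 3 of SH4-54 (edgeR adjusted p = 0.00892), STAT3 without replicate 2 of both compounds (0.0309) and STAT5B without replicate 3 of both compounds (0.0428).

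**Figure D2:**
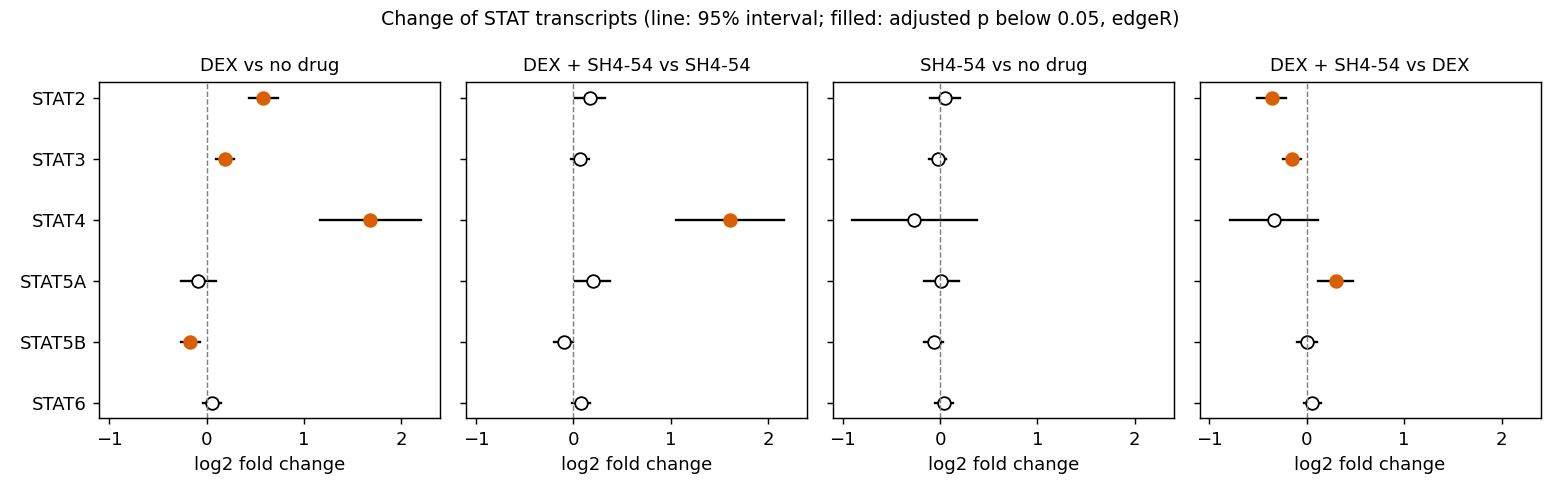
Log2 fold changes of the 6 members (points; lines are 95% intervals, filled points passed an adjusted p of 0.05) in 4 comparisons. STAT4 responded to DEX by 1.68 without SH4-54 and 1.61 with it, while the STAT2 response was 0.58 without and 0.17 with SH4-54.

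The difference between the DEX responses with and without SH4-54 was tested as an interaction. STAT2 was the 1 member called, with a response smaller by a log2 difference of -0.41 ± 0.0939 (SE; edgeR adjusted p = 0.0287). Over all genes 2.44% had a higher and 1.46% a lower interaction, beside 0 and 1 of the 6 members. The call was lost in 8 of the 12 fits that left out 1 library, at edgeR adjusted p from 0.0508 to 0.0818, while the difference ran from -0.51 to -0.33 over the 12. The 8 libraries were replicates 2 and 3 of no drug, all 3 of DEX, replicates 2 and 3 of SH4-54 and replicate 1 of both compounds. For STAT4 the difference was -0.07, with a 95% interval from -0.87 to 0.72, which leaves room for a sizeable difference either way. For STAT3 it was -0.12 ± 0.056 (SE; edgeR adjusted p = 0.221), and without replicate 3 of both compounds it was -0.20 with edgeR adjusted p = 0.00889.

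Against no drug, both compounds together gave 4 members higher (STAT2, STAT4, STAT5A, STAT6) and 1 lower (STAT5B), with 21.1% of all genes higher and 21.6% lower. STAT4 was 2.54-fold higher (log2 fold change 1.34 ± 0.228 SE; edgeR adjusted p = 0.00024) and STAT5B had a log2 fold change of -0.16 ± 0.0429 (SE; edgeR adjusted p = 0.00622). The other calls were small and did not outlast the omission of single wells. STAT2 (0.22 ± 0.0665 SE; edgeR adjusted p = 0.0141) lost its call without replicate 3 of no drug (0.0739) or of both compounds (0.0766). STAT5A (0.21 ± 0.0775 SE; edgeR adjusted p = 0.0372) lost its call without any 1 of the 6 wells compared (0.0575 to 0.113). It also lost it with no count filter (edgeR adjusted p = 0.0525) and under DESeq2 (adjusted p = 0.0833). STAT6 (0.12 ± 0.0394 SE; edgeR adjusted p = 0.0245) lost its call without replicate 1 or 2 of no drug (0.051 and 0.0995) or replicate 2 of both compounds (0.0753). With no count filter the STAT6 call was lost too (edgeR adjusted p = 0.0639).

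The balance of STAT5A and STAT5B reads was compared within each library, where library size cancels. There were 20.01, 18.53 and 18.38 STAT5A reads per 100 STAT5B reads without drug and 19.47, 20.10 and 20.74 with DEX. The ratio was 20.54, 17.46 and 22.17 with SH4-54 and 26.11, 23.56 and 24.44 with both compounds. Only the wells with both compounds stood above all the others. DEX wells exceeded wells without DEX by 0.20 on the log2 scale, averaged over the arms with and without SH4-54 (exact two-sided permutation test within arms, 400 arrangements, p = 0.01). That ratio was chosen with earlier results for both genes known, so its p is not independent support for a shift. The separate differences were 0.08 without SH4-54 (exact p = 0.2) and 0.31 with it (exact p = 0.1, the smallest that 3 wells against 3 allow), and the difference between the arms was not tested for this ratio. Without the arms as strata the pooled test gave p = 0.05195 (exact permutation).

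**Figure D3:**
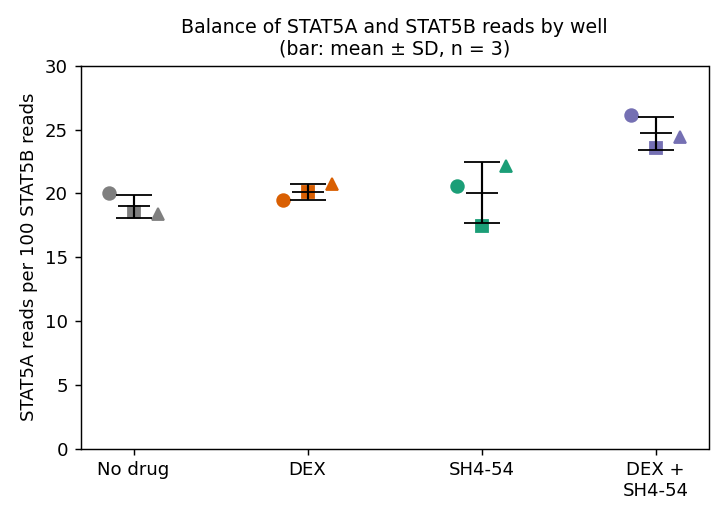
STAT5A reads per 100 STAT5B reads (y axis, from 0) in each well, with group mean and SD (n = 3). The wells with both compounds lie at 23.6 to 26.1, above the other 9 wells at 17.5 to 22.2.

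Promoter sequence is shown for STAT2 and STAT4, the members with the largest rises with DEX. Each run is the 250 bases before the RefSeq transcription start (GRCh38.p14), 5′ to 3′ on the gene's strand, with any motif match in capitals. The STAT2 stretch is chr12:56360108-56360357 and the STAT4 stretch chr2:191151597-191151846, both on the minus strand:
STAT2: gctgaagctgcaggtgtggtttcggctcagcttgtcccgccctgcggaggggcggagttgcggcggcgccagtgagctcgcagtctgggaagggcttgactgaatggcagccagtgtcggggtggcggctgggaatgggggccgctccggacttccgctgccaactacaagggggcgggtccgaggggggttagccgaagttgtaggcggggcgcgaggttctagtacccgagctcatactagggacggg
STAT4: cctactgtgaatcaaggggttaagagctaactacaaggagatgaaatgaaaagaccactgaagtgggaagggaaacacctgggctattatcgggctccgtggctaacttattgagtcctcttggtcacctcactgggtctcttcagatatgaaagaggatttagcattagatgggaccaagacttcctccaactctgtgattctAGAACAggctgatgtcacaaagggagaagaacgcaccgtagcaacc
All 6 members matched a promoter entry. Motifs were searched on both strands of the 250 bases: the STAT site TTCNNNGAA, the same site with 4 bases between TTC and GAA, the glucocorticoid response element as GNACA and TGTNC with 3 bases between, its half-site AGAACA, and an interferon-response motif of GAAA repeated after a gap of 2 bases. The half-site was added after the STAT4 sequence had been seen. AGAACA occurred in STAT4, starting 46 bases before the start, and in STAT5A, 97 bases before it, as in 12.44% of 27305 promoters. The STAT site with the 4-base gap occurred in STAT5A alone among the 6, and in 5.35% of promoters. TTCNNNGAA, the full glucocorticoid element and the interferon-response motif matched none of the 6 windows, and occurred in 6.78%, 0.33% and 3.07% of promoters. A match is a string of letters and not a measured binding site.

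With DEX, most tested ligand genes of the pathway were lower and 13 of 24 receptor genes were higher. Of 81 ligands, receptors, kinases, inhibitors and nuclear partners, 63 could be tested, and 20 rose and 16 fell with DEX (the same background of 21.9% and 23.2%). The median log2 fold change of the 63 was 0.10, beside -0.01 over all genes. Adding SH4-54 to DEX gave 9 higher and 10 lower (background 13.0% and 13.5%), a total of 19 that became 12 without DEX replicate 2 and 11 without replicate 2 of both compounds. The interaction called 3 higher and 2 lower (background 2.44% and 1.46%), a total of 5 that became 3 without DEX replicate 2 and 14 without replicate 3 of both compounds. These lists were drawn from textbook knowledge, but with earlier results of these data known. Their counts beside the background are therefore descriptions and not independent support. A gene can stand in more than 1 list.

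Among ligands, 7 of 9 tested genes fell and 1 rose with DEX, beside 23.2% lower and 21.9% higher over all genes. IL11, a cytokine of the interleukin-6 family that signals to STAT3, fell from 230.0 ± 15.6 (SD, n = 3) to 11.9 CPM (log2 fold change -4.27 ± 0.192 SE; edgeR adjusted p = 2.04e-10). IL24, an interleukin-10 family cytokine, fell by 1.89 on the log2 scale, CSF2, the GM-CSF gene that acts through STAT5, by 1.35 and IL6, the founding STAT3 ligand, by 0.52. Adding SH4-54 to DEX raised 5 of the 9 and lowered none, beside 13.0% higher and 13.5% lower over all genes. IL11 then averaged 63.2 CPM, a log2 fold change of 2.399 ± 0.192 over DEX alone (SE; edgeR adjusted p = 2.12e-06). LIF, another STAT3 ligand, rose by 0.22 in that comparison, a call lost without DEX replicate 1 (edgeR adjusted p = 0.0532) or replicate 2 of both compounds (0.059).

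Receptor genes moved the other way, with 13 of 24 tested higher and 2 lower with DEX (background 21.9% and 23.2%). IL6R, the interleukin-6 binding chain, rose by 1.255 on the log2 scale and IFNGR1, the ligand-binding interferon-gamma chain, by 1.16. LIFR, the LIF receptor, rose by 0.40 and IL13RA1, which pairs with IL4R upstream of STAT6, by 0.46. IL6ST, the shared gp130 chain, rose by only 0.10 from a mean of 745 CPM. With SH4-54 added to DEX, 6 of the 24 fell and none rose, beside 13.5% lower and 13.0% higher over all genes. Among the 6 were LEPR, the leptin receptor (-0.42 ± 0.0618 SE; edgeR adjusted p = 0.000296), IL13RA1 (-0.41) and LIFR (-0.36).

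Of 4 tested kinases, 2 rose and 1 fell with DEX (background 21.9% and 23.2%). JAK2, which serves hormone-type and interferon-gamma receptors, rose from a mean of 15.8 to 24.9 CPM with DEX (log2 fold change 0.66 ± 0.105 SE; edgeR adjusted p = 0.000124), and JAK1, the kinase of gp130 and interferon receptors, rose by 0.24. With SH4-54 added to DEX, 1 of the 4 rose and 2 fell (background 13.0% and 13.5%). JAK2 fell by 0.44 and JAK1 by 0.14. The JAK1 call did not hold without replicate 1 or 2 of DEX or replicate 1 or 2 of both compounds (edgeR adjusted p = 0.0598 to 0.103). It was also lost in a fit of only the groups compared (edgeR adjusted p = 0.0602). TYK2, the kinase of the type I interferon receptor, had a log2 fold change with DEX of -0.01, a sign that flips to at most 0.01 under several alternatives. The non-receptor kinase SRC fell by 0.29 with DEX and rose by 0.17 when SH4-54 was added to DEX (edgeR adjusted p = 0.0447). That rise lost its call in 13 of 19 alternative fits. JAK3 was too low to test.

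Of 17 tested inhibitors, 3 were higher and 5 lower with DEX, near the 21.9% and 23.2% over all genes. SOCS2, a STAT5-induced suppressor of growth hormone signalling, fell from a mean of 93.4 to 35.7 CPM (log2 fold change -1.39 ± 0.0466 SE; edgeR adjusted p = 8.98e-12). It was the only 1 of the 63 pathway genes called with SH4-54 alone, beside 0.268% higher and 0.331% lower over all genes. Its log2 fold change there was -0.26 ± 0.0445 (SE; edgeR adjusted p = 0.0124). The call was lost without replicate 2 or 3 of no drug or replicate 1 or 2 of SH4-54 (0.0543 to 0.0879). At an unadjusted p below 0.05, 10 of the 63 passed with SH4-54 alone, beside 1862 of the 14184 tested genes. DESeq2 called 3 of the 63 after adjustment. SOCS3, the STAT3-induced inhibitor of gp130, fell by 0.24 with DEX, while PTPN1, a phosphatase acting on JAK2, rose by 0.32. Of 9 nuclear partners, KPNA3, an importin, rose by 0.15 with DEX and NR3C1 fell, beside 21.9% higher and 23.2% lower over all genes. The KPNA3 call was lost without replicate 1 or 2 of no drug or of DEX, or replicate 2 of SH4-54 (edgeR adjusted p = 0.052 to 0.179). IRF9, the DNA-binding partner of STAT2, had a log2 fold change of 0.18 ± 0.0945 with DEX (SE; edgeR adjusted p = 0.148).

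Genes known as STAT targets moved in both directions. These target lists, too, were chosen with earlier results of these data known, so their counts are descriptions. In the list of 20 interferon-stimulated genes linked to STAT2, 4 rose and 2 fell with DEX, near or below the 21.9% and 23.2% over all genes. When SH4-54 was added to DEX, 1 rose and 11 fell, beside 13.0% and 13.5% over all genes. IFI44L, an interferon-induced gene, rose by 1.73 with DEX, and IFI44 by 0.42. IFIT1 and IFIT3, also interferon-induced, did not pass with DEX (0.03 and 0.02) and fell by 0.75 and 0.55 when SH4-54 was added. ISG15, a ubiquitin-like modifier, was lower with SH4-54 alone (-0.24 ± 0.0395 SE; edgeR adjusted p = 0.0102). That call was lost without replicate 2 of no drug (0.0518).

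Of 19 tested genes linked to STAT3, 13 rose and 5 fell with DEX, beside 21.9% and 23.2% over all genes, so the falls are near the background share. NNMT, a nicotinamide methyltransferase, rose by 2.87 on the log2 scale and CEBPB, a bZIP transcription factor, by 1.66, while FOSL2, an AP-1 subunit, fell by 0.65. FOS, an AP-1 immediate early gene, was the only 1 of the 19 called with SH4-54 alone (background 0.268% higher and 0.331% lower). It went from a mean of 1.73 to 6.36 CPM (log2 fold change 1.88 ± 0.295 SE; edgeR adjusted p = 0.00849) and reached 26.4 CPM with both compounds. Without replicate 2 of no drug the FOS call with SH4-54 was lost (edgeR adjusted p = 0.0507). Of 9 tested genes linked to STAT5, 4 rose and 3 fell with DEX (background 21.9% and 23.2%). CDKN1A, a cell cycle inhibitor, rose by 1.01 and BCL2L1, an apoptosis inhibitor, by 0.40. Of 6 tested genes linked to STAT6, 3 rose and 1 fell with DEX (the same background). TGM2, a transglutaminase, rose by 1.92, and CCL26, an eotaxin chemokine, fell by 1.56 with DEX but rose by 1.249 with SH4-54 and averaged 24.4 CPM with both compounds, against 2.90 without drug. The CCL26 call with SH4-54 was lost without any 1 of the no-drug wells or without replicate 1 or 2 of SH4-54 (edgeR adjusted p = 0.0544 to 0.0789).

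**Figure D4:**
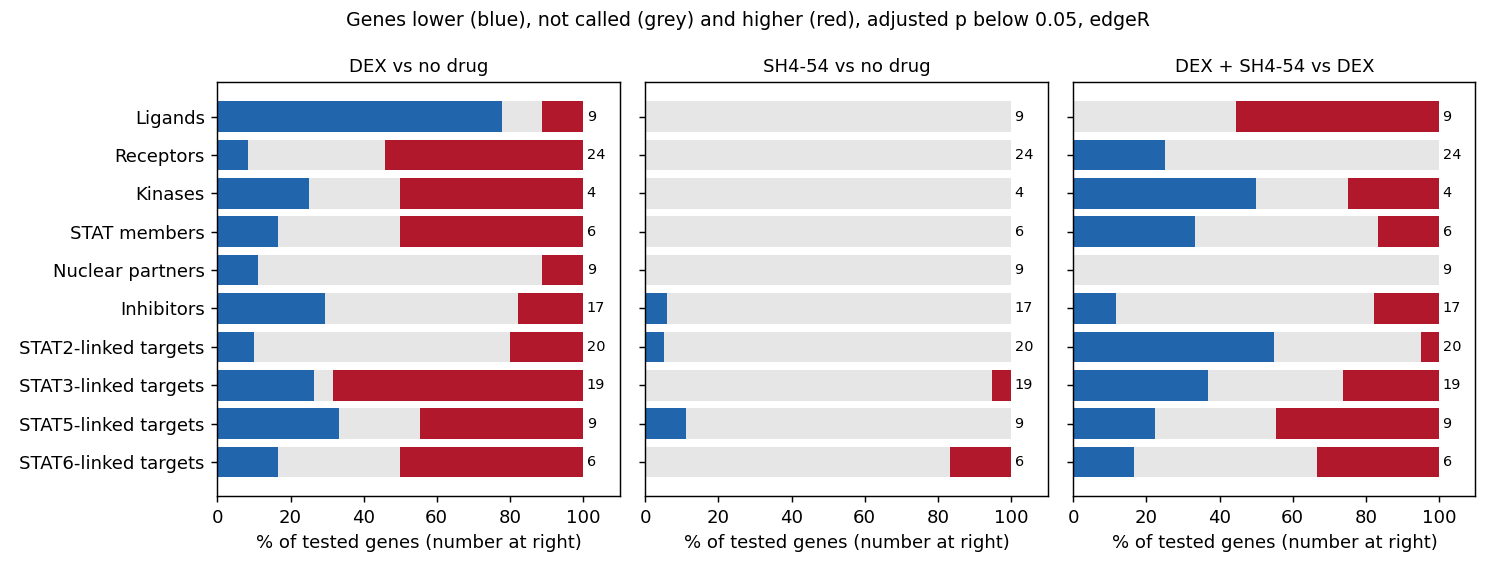
Share of tested genes in each list (x axis, percent; number tested at right) that were lower (blue), not called (grey) or higher (red) in 3 comparisons. Ligands show 7 of 9 lower with DEX and 5 of 9 higher when SH4-54 was added, receptors 13 of 24 higher and then 6 of 24 lower. Over all genes 21.9% were higher and 23.2% lower with DEX, and 13.0% and 13.5% when SH4-54 was added. The left and right panels share the DEX wells. All lists were chosen with earlier results of these data known.

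Over the 12 libraries, STAT2 and STAT3 varied together most closely among the members, with a Pearson correlation of log2 CPM of 0.91, and STAT2 and STAT5B varied oppositely (-0.71). STAT5A correlated with the other members between -0.21 and 0.25. The libraries share group structure and scaling, so these values are descriptions. Among the genes most like STAT2 were EMP2 and STT3B (0.98 each), and those most like STAT3 were LONP2 (0.99), EFR3A and LIFR (0.98 each). For STAT4 they were FGA, YBX3 and MYL12B (0.98, 0.98 and 0.97), for STAT5B ERP27, SKA2 and APOBEC3B (0.97, 0.93 and 0.93), for STAT6 PRDM12, EXOSC4 and FAM127B (0.93, 0.92 and 0.90), and for STAT5A BCAP31, MYCT1 and PIPSL (0.87, 0.87 and 0.85). Some of these genes had few reads. Group means ran from 0.0129 to 0.427 CPM for MYCT1 and from 0.156 to 0.53 CPM for PRDM12. They ran from 0.185 to 0.655 CPM for ERP27 and from 0.101 to 1.98 CPM for FGA.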

How the data were processed

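Read counts per gene symbol, as whole numbers, are the unit of the single table that the authors deposited: 26364 rows by 12 libraries, 4474 of them at 0 throughout. Per the labels' protocols, ribosomal RNA was removed and the reads were single-end, 50 bases long, from strand-marked libraries. The submitters' processing notes list HISAT2 2.1.0, SAMtools and featureCounts 1.5.1, along with hg19 and GRCh37 as builds. They do not say how multi-mapping reads or strand were handled. Sample titles gave the group and the replicate number, since the treatment tag of SH4-54 samples reads SH5-54. Replicates are wells, so p-values reflect well-to-well spread.

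The counts were modelled in R 4.3.3 with edgeR 4.0.16 (filterByExpr, TMM, 1 quasi-likelihood fit of the 4 groups with 8 residual degrees of freedom). The model gave 6 contrasts, 5 between pairs of groups and 1 interaction. P-values were adjusted by Benjamini-Hochberg across the 14184 genes tested, at a threshold of 0.05. Each standard error was computed as the size of the log2 fold change divided by the root of its F statistic. Log2 CPM used a prior count of 2. The model and the permutation test were tested on simulated data.

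The members and gene lists were chosen with earlier results of these data known. Named genes are the 6 members, up to 4 genes of each list with the smallest p in DEX or SH4-54 against no drug or both against DEX, the JAK kinases, and for each member the 3 genes with the most similar log2 CPM. Some items that these rules take are not reported here. Exons and coding sequences are from GENCODE v29 (GRCh38) and promoters from RefSeq (GRCh38.p14), and no coordinates were carried over to hg19. Alternatives used DESeq2 1.42.0 (its size factors, and its Wald test), other count filters, a block for the replicate number, fewer groups, fewer abundant genes (10 removed) and fewer libraries (each left out).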

Additional observations from a re-analysis of the deposited data

Results flagged for a closer look

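The response to DEX differed with and without SH4-54, by the interaction test, in STAT2 and in 13 other named genes. Over all genes 2.44% had a higher and 1.46% a lower interaction. Most named genes were picked by a small p in comparisons of the same wells that make up the interaction. Their number is therefore not a result about the pathway. The log2 response with SH4-54 minus that without it was -0.41 for STAT2, -0.423 for the receptor gene LEPR, and -0.322 for IFI44, -0.359 for IFIT3, -0.452 for IFIT1 and -0.764 for OASL among the interferon-stimulated genes. For the hypoxia factor gene HIF1A it was -0.326. It was higher with SH4-54 for the ligands IL11 (2.144) and IL24 (1.548), for SOCS2 (0.49), FOS (2.58), CCL26 (3.38), ID1 (0.338) and BIRC5 (0.23). HIF1A lost its call in 11 of the alternative fits and IFI44 in 13, STAT2 in 8, BIRC5 in 6, ID1 in 5, IFIT1 in 3, and OASL and LEPR in 1 each. IL11, IL24, IFIT3, SOCS2, FOS and CCL26 lost none. These alternative fits include those with each library left out in turn. No separate test for outlying wells was run.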

How the results depend on the processing

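Of the 6 members' 36 changes (6 in each of 6 comparisons), 21 kept direction and side of the threshold under every alternative run, among them the 4 called changes with DEX, both STAT4 rises with both compounds and the STAT2 fall against DEX. The count of members called against no drug with both compounds went from 5 to 3 with no count filter, and from 3 to 5 with libraries left out. Against SH4-54 the count of 1 became 2 with DESeq2 size factors, with the DESeq2 Wald test and with no count filter, 3 with the stricter filter, and 1 to 3 with libraries left out. For the interaction the member count was 0 to 2 with libraries left out. Pathway genes called with SH4-54 alone went from 1 to 3 with the DESeq2 Wald test, with no count filter and with only the groups compared, and were 0 to 2 with libraries left out. For both compounds against DEX the 19 pathway calls were 11 to 23 with libraries left out, 12 without DEX replicate 2 and 11 without replicate 2 of both compounds. The 5 interaction calls became 8 with the DESeq2 Wald test and 9 with no count filter, and 3 without DEX replicate 2 to 14 without replicate 3 of both compounds. Changes of sign were in uncalled values with main estimates near 0. The STAT4 interaction moved farther from 0, to 0.246 without replicate 3 of SH4-54. STAT5B for both compounds against DEX was -0.007 with DESeq2 size factors and with no count filter, -0.006 with the DESeq2 Wald test and -0.033 to 0.045 with libraries left out. TYK2 with DEX was 0.003 with DESeq2 size factors, 0.002 with the DESeq2 Wald test, 0.001 with the stricter filter, 0.004 with only the groups compared and -0.021 to 0.011 with libraries left out. With libraries left out, STAT3 for both compounds against no drug was -0.012 to 0.085, the STAT4 interaction -0.31 to 0.246, the STAT6 interaction -0.016 to 0.041, STAT5A with SH4-54 -0.076 to 0.104, and with SH4-54 JAK2 was -0.053 to 0.057 and SRC -0.036 to 0.035. The cause of these shifts was not tested. Low counts limit STAT4.

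Deviations of same-numbered wells had a correlation of -0.0975 to 0.0926, and those of different-numbered wells -0.107 to 0.142. No shared deviation by number was thus seen. Whether same-numbered wells were handled together cannot be told from these values. With the replicate block, the member counts were 4 with DEX, 0 with SH4-54, 5 with both against no drug, 3 against DEX, 1 against SH4-54 and 1 for the interaction, and the pathway counts 35, 1, 22, 18, 32 and 6. The STAT5A to STAT5B ratio difference of 0.195 had an exact permutation p of 0.0625 by pairs, 0.05195 with no SH4-54 stratum, and was 0.147 to 0.233 with libraries left out.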
